A study of Homo sapiens with 8 samples.

Results

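The genes described here are 9 antioxidant and detoxification genes known as targets of the transcription factor NRF2: TXNRD1, SRXN1, NQO1, HMOX1, GCLM, GCLC, AKR1B10, AKR1C1 and AKR1C2. They were taken by name, with every probe set paired with exactly 1 gene symbol, which gave 22 of the 54675 probe sets and 9 of the 19775 named genes on the array. They were followed in A375, a human melanoma cell line with an activating BRAF mutation, on 8 Affymetrix arrays of total RNA, 1 array per condition. All cells received an siRNA: a nontargeting one (siCont), one against BRAF (siBRAF) or one against the stress transcription factor ATF4 (siATF4). A set of 5 arrays covered siCont, siBRAF and siATF4 cells in normal RPMI1640 medium and siCont and siBRAF cells in glutamine-free medium, for 18 h by the treatment protocol; the labels of single arrays repeat this time for the glutamine-free arrays and give none for normal medium. The other set of 3 arrays covered siCont cells in DMSO and siCont and siATF4 cells in 10 uM vemurafenib, a BRAF inhibitor, for 4 h. The siRNA sequences were not used here, and no condition has a second culture.

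NRF2, encoded by NFE2L2, is a basic leucine zipper factor that KEAP1 holds in the cytosol and feeds to a CUL3 ubiquitin ligase. Oxidants and electrophiles that modify KEAP1 cysteines let NRF2 accumulate, pair with a small MAF protein and bind antioxidant response elements, whereas BACH1 occupies many of the same elements and represses them. Its targets supply reduced thioredoxin and glutathione, break down heme and reduce quinones and reactive carbonyls.

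The antioxidant response element is shown first because it is the sequence feature that is known to join these genes. The core TGACNNNGC was searched on both strands, as itself and as GCNNNGTCA, in the RefSeq promoter windows (GRCh38.p14, 250 bases before to 50 bases after a start site). Of the 9 genes, 7 matched a window by symbol, with 8 windows in all because TXNRD1 had 2 start sites; HMOX1 and AKR1B10 had none in the table. The core was found in 3 of the 8 windows, those of GCLM and of both TXNRD1 starts, while 13.3% of all 35116 windows held it. Each match is printed on the strand of its gene with 10 bases on either side, and capitals mark the core.
GCLM, chr1:93909446-93909474, minus strand, core beginning 34 bases before the start site: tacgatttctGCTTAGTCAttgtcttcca
TXNRD1, downstream start, chr12:104286920-104286948, plus strand, core beginning 102 bases before the start site: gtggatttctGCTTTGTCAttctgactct
TXNRD1, upstream start, chr12:104215670-104215698, plus strand, core beginning 99 bases before the start site: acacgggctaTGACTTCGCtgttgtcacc
TXNRD1, upstream start, chr12:104215761-104215789, plus strand, core beginning 8 bases before the start site: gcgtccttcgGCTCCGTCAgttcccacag
The GCLM core and the cores at 102 and 8 bases in TXNRD1 lie in the reverse orientation, and the core at 99 bases reads as written. These are matches of letters only, and no binding was measured. Sequence outside the windows was not searched, so a gene without a match here may hold the core elsewhere.

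The 2 sets of arrays differ in scale. The median intensity was 14.8 to 15.5 on the 5 medium arrays and 36.4 to 36.9 on the 3 DMSO and vemurafenib arrays, so differences were taken within a set and levels are not compared across sets. The values are intensities that the authors made with RMA, and a difference is that of log2(intensity + 1) between 2 arrays. To enter a comparison, a gene needed its higher value to be no less than that array's median. The main count is of genes 2-fold apart or more. No condition was replicated, no error is given, no difference was tested and the text describes pairs of arrays. ATF4 was lower on both siATF4 arrays than on the matching siCont arrays, with log2 differences of -1.76 in normal medium and -2.59 in vemurafenib. BRAF itself was not analysed here, so its level under siBRAF was not checked. Of 8 markers of the melanocyte lineage, MITF, SOX10, S100B, S100A1 and TYR were above the array median on all 8 arrays, PMEL on 3, and MLANA and TYRP1 on none. TYR was only just above it on the medium arrays, at 15.4 to 17.7. Of 8 markers of other cell types, PTPRC, EPCAM, CDH1 and ALB (blood, epithelial and liver cells) were below it on all 8, while KRT5, KRT14, COL1A1 and PECAM1 (epithelial cells, fibroblasts and endothelium) were at or above it on all 8. KRT14 read 90.1 to 182 on the medium arrays, where it was lowest in siCont cells without glutamine, and 386 to 573 on the other 3; COL1A1 read 106 to 123 and 174 to 183. KRT5 was only just above the array medians, at 18.4 to 21.9 on the medium arrays and 39.3 to 44.6 on the other 3. PECAM1 read 24.7 to 32.2 and 53.0 to 61.2. The part of these markers in the results was not tested. For RNA quality, the log2 gap between the 3' and 5' actin control probes was 0.16 to 0.28 on the medium arrays and -0.18 to 0.00 on the other 3.

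Of the 22 probe sets, 15 were at or above the array median on all 8 arrays, 6 were below it on all 8, and the probe set of AKR1B10 was below it on 1. Each gene is given by its brightest probe set. All 9 genes entered all 7 comparisons.

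**Figure D1:**
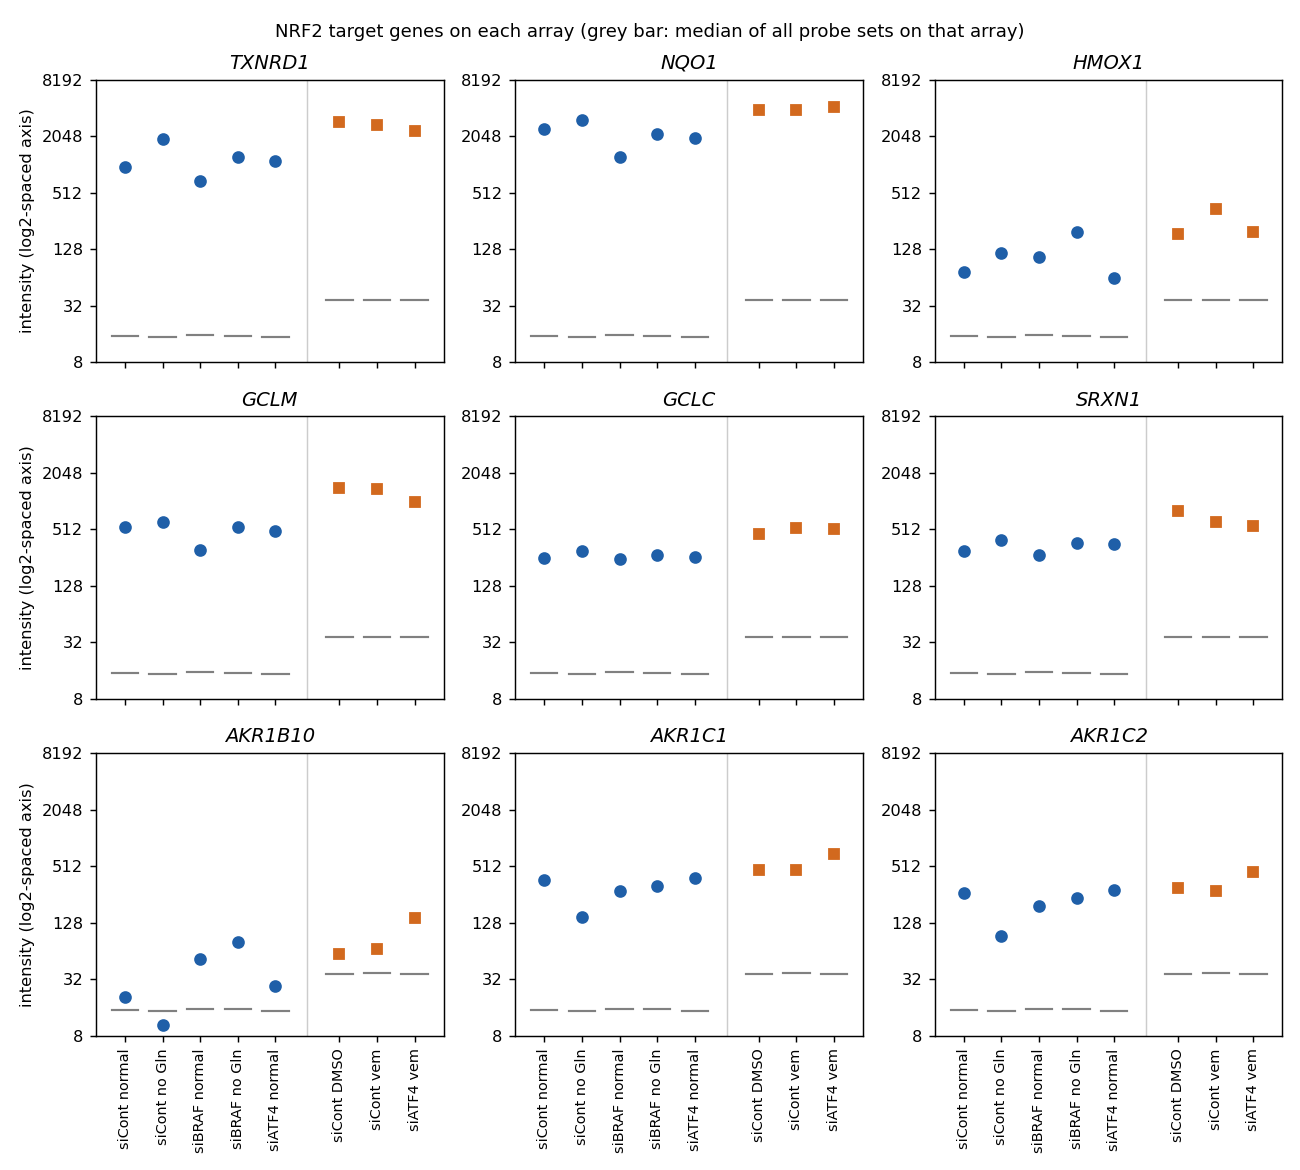
Intensity of the 9 NRF2 target genes on each of the 8 arrays, on a log2-spaced axis; circles are the 5 medium arrays, squares the 3 DMSO and vemurafenib arrays, and grey bars each array's median over all probe sets (Gln, glutamine; vem, vemurafenib). Each gene is shown by its brightest probe set. TXNRD1 and NQO1 are highest without glutamine in siCont cells among the medium arrays, and AKR1C1 and AKR1C2 are lowest on that same array. AKR1B10 lies below its grey bar only there.

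In siCont cells the redox genes read higher and the aldo-keto reductases lower without glutamine than in normal medium. At least 2-fold differences were seen in 3 of the 9 genes, 1 higher (5.76% of 13355 genes were) and 2 lower (7.22% were). At 1.5-fold 2 were higher (13.3% of all genes were) and 3 lower (16.8% were). With 9 genes each count is of 1 to 3 genes, on a pair of arrays that differed widely. The median of the 9 genes was 0.27, beside -0.05 over all genes. All 9 genes lay within the central 95% of all genes, which ran from -1.52 to 1.46. Of all genes, 32.3% were higher than GCLM, 26.2% higher than GCLC and 22.2% higher than NQO1.

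TXNRD1 encodes the cytosolic thioredoxin reductase, which uses NADPH to keep thioredoxin reduced. Its intensities on the medium arrays were 962 in siCont cells in normal medium, 1933 in siCont cells without glutamine, 689 in siBRAF cells in normal medium, 1217 in siBRAF cells without glutamine and 1108 in siATF4 cells. The siCont array without glutamine was the highest of the 5 and the siBRAF array in normal medium the lowest. Glutamine-free medium went with a 2.01-fold higher level in siCont cells (1.01) and a 1.77-fold higher one in siBRAF cells (0.82). The difference of 1.01 is at the 2-fold limit, and it became 0.99 with log2(intensity + 16) and under quantile normalization. With the mean of both TXNRD1 probe sets it was 0.46, since the other probe set read 2.24 to 4.02 on the 8 arrays, below every array median.

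SRXN1 encodes sulfiredoxin, which restores overoxidised peroxiredoxins. It read 300 and 395 in siCont cells with and without glutamine, and 276 and 366 in siBRAF cells. The difference was 0.40 in siCont and 0.40 in siBRAF cells. It read 357 with siATF4, between these values.

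NQO1 encodes a reductase that turns quinones into hydroquinones. It read 2435 in siCont cells in normal medium and 3078 without glutamine, 1244 and 2166 in siBRAF cells in these media, and 1958 with siATF4. Its lowest array was again siBRAF in normal medium. Its 3 probe sets differed by 0.21 to 0.41 with glutamine withdrawal in siCont cells and by 0.80 to 0.92 in siBRAF cells. All 3 bear a suffix for shared probes and were read on the same arrays, so these ranges are not a spread between replicates.

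GCLC and GCLM encode the catalytic and the modifier subunit of glutamate-cysteine ligase, the rate-limiting enzyme of glutathione synthesis, and they read differently. GCLM was at 547 and 618 in siCont cells with and without glutamine, at 306 and 543 in siBRAF cells, and at 493 with siATF4. The low value is that of siBRAF cells in normal medium, and the other 4 arrays, at 493 to 618, lie above it. GCLC was nearly level, at 254, 305, 248, 275 and 258 on the same arrays. All 3 GCLM probe sets stood at 0.83 to 0.86 for glutamine withdrawal in siBRAF cells, and the 2 GCLC probe sets above the median at 0.11 to 0.15.

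HMOX1 encodes heme oxygenase, which opens heme into biliverdin, iron and carbon monoxide. It read 73.2 in siCont cells in normal medium, 117 in siCont cells without glutamine, 106 and 195 in siBRAF cells with and without glutamine, and 63.3 with siATF4. It was thus highest with siBRAF and no glutamine together, where TXNRD1 and NQO1 were not by their brightest probe sets. Another NQO1 probe set was also highest there, at 1347 beside 1299 in siCont cells without glutamine. Glutamine withdrawal went with a 1.60-fold higher level in siCont and a 1.82-fold higher one in siBRAF cells.

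AKR1C1 and AKR1C2 encode hydroxysteroid dehydrogenases that reduce ketosteroids and lipid aldehydes, and their transcripts are so alike that the probe sets, which bear the suffix for cross-hybridising probes, may read both. AKR1C1 was at 362 in siCont cells in normal medium and 148 without glutamine, 280 and 314 in siBRAF cells, and 384 with siATF4. AKR1C2 was at 264 and 93.3 in siCont cells, 193 and 232 in siBRAF cells, and 284 with siATF4. The siCont array without glutamine was the lowest of the 5 for both genes, 2.43-fold and 2.81-fold below the siCont array in normal medium. The second probe sets gave -0.96 for AKR1C1 and -1.15 for AKR1C2. The AKR1C1 and AKR1C2 probe sets without a suffix for shared probes were below the median on all 8 arrays, so that neither gene could be read from its own probes alone.

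AKR1B10 encodes a reductase of retinal and other carbonyls, and its 1 probe set also bears a suffix for shared probes. It read 20.6 in siCont cells in normal medium and 10.4 without glutamine, where it was below the array median of 14.8, and 52.4 and 79.4 in siBRAF cells in these media, with 27.1 in siATF4 cells. Both siBRAF arrays were above all 3 others. The size of its differences depends on background and on the constant added before the log. The actin 3' to 5' gap was 0.28 on the siCont array without glutamine and 0.16 on its partner in normal medium, and its part in these differences was not tested.

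Of 14 genes of NRF2 control, 5 were at least 2-fold apart on the same pair of arrays, 4 higher and 1 lower, beside the 5.76% and 7.22% of all genes. NFE2L2 itself read 711 with and 1640 without glutamine in siCont cells, a difference of 1.21, and KEAP1 read 401 and 221, a difference of -0.86. The 4 higher genes were the small MAF genes MAFF (2.72) and MAFG (1.16), the repressor BACH1 (1.96) and NFE2L2, and the lower one was DPP3 (-1.00), whose protein can bind KEAP1. The median of the 14 was -0.13, with 6 above 0 and 8 below.

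Of 24 further NRF2 targets, 1 was at least 2-fold higher in that pair, the cystine carrier SLC7A11 (2.01). Lower were 4: the carbonyl reductases CBR3 (-1.67) and CBR1 (-1.63), AKR1C3 (-1.44) and the peroxiredoxin PRDX1 (-1.39). Their median was -0.25, and 5 of the 24 were above 0, beside 46.2% of all genes. Of 10 glutathione and cysteine genes 4 were higher: CTH (3.87) and CBS (2.70), the enzymes of transsulfuration, the glutathione-degrading CHAC1 (2.39) and SLC3A2 (2.04), the partner chain of SLC7A11. CTH, CHAC1, SLC3A2 and SLC7A11 are also known targets of ATF4, which read 1814 and 4360 on the same 2 arrays. Of 12 antioxidant enzymes outside the NRF2 lists, 0 were at least 2-fold apart, with a median of -0.26.

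In siBRAF cells all 9 genes were higher without glutamine, on a pair of arrays that differed little elsewhere. The median of the 9 was 0.59, beside 0.01 over 13138 genes, and the central 95% of all genes ran from -0.39 to 0.38. None of the 9 reached 2-fold, where 0.0457% of all genes were higher and 0.0761% lower. At 1.5-fold 5 of the 9 were higher, HMOX1 (0.87), GCLM (0.83), TXNRD1 (0.82), NQO1 (0.80) and AKR1B10 (0.59), while 0.571% of all genes were; none was lower, where 0.723% of all genes were.

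Counted from the highest difference, HMOX1 was at rank 17, GCLM at 20, TXNRD1 at 21, NQO1 at 26 and AKR1B10 at 73 of 13138. SRXN1, at 0.40, was at rank 289. AKR1C2 (0.27), AKR1C1 (0.16) and GCLC (0.15) lay within the central 95%. In siCont cells the members lay on both sides of a much wider distribution: TXNRD1 was at rank 762 of 13355, HMOX1 at 1479 and NQO1 at 2968 from the highest difference, and AKR1C2 was at 364, AKR1C1 at 561 and AKR1B10 at 1123 from the lowest.

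Of the 24 further NRF2 targets, 23 were above 0 in siBRAF cells without glutamine, beside 54.1% of all genes, with a median of 0.24. PIR, a nuclear iron-binding protein, read 294 and 548 (0.90), SLC7A11 85.3 and 145 (0.76), and the NADPH-forming malic enzyme ME1 538 and 800 (0.57). The first 2 of these passed 1.5-fold, where 0.571% of all genes were higher, and none of the 24 passed 2-fold. NFE2L2 read 900 and 951 in that pair (0.08), KEAP1 332 and 374 (0.17), and none of the 14 regulators reached 1.5-fold in either direction. The glutathione and cysteine genes had a median of 0.02, with CTH at 0.03 and CHAC1 at -0.56, and the antioxidant enzymes outside the NRF2 lists a median of 0.02. ATF4 was at -0.02. The actin gap was 0.18 and 0.16 on these 2 arrays.

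**Figure D2:**
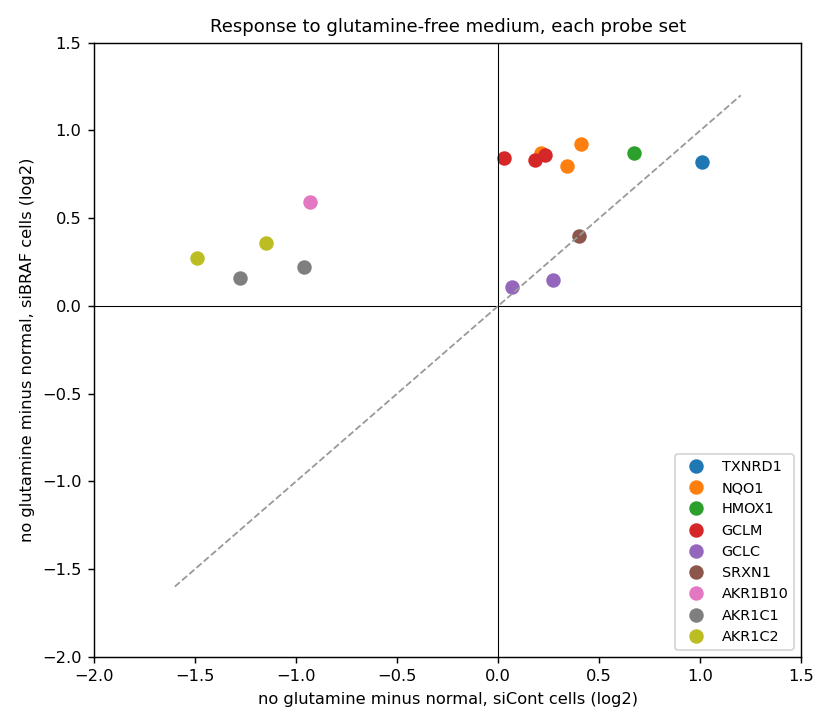
Difference of log2(intensity + 1) between glutamine-free and normal medium in siCont cells (horizontal) and in siBRAF cells (vertical), 1 point per probe set of the 9 genes that reached the array median on at least 7 arrays; the dashed line marks equal differences. The probe sets of NQO1 and GCLM lie above the line at 0.80 to 0.92, TXNRD1 lies below it, SRXN1 lies on it, and the AKR probe sets are negative in siCont and positive in siBRAF cells.

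The size of the glutamine difference varied among the members between siCont and siBRAF cells. It was greater in siBRAF cells by 0.65 for GCLM, 0.46 for NQO1 and 0.19 for HMOX1, and smaller by 0.19 for TXNRD1 and 0.11 for GCLC. For the AKR genes it had opposite signs, from -0.93 to -1.49 in siCont cells and from 0.16 to 0.59 in siBRAF cells. Their signed gaps were 1.45 to 1.76, and the size of each was smaller in siBRAF cells. These differences of differences rest on 4 arrays and were not tested.

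In normal medium, siBRAF cells had lower NQO1 and GCLM and higher AKR1B10 than siCont cells. At least 2-fold higher was 1 of the 9 genes, AKR1B10 (1.30), where 7.16% of 13346 genes were, and 0 were lower, where 7.61% were. At 1.5-fold the counts were 1 higher (15.5% of all genes) and 2 lower (2138 of the 13346 genes). The median of the 9 genes was -0.37 and that of all genes -0.01. All 9 genes lay within the central 95% of all genes, which ran from -1.72 to 1.69. Of all genes, 8.05% were lower than NQO1, 9.95% lower than GCLM and 4.29% higher than AKR1B10. NQO1 was 1.96-fold lower (-0.97), its 3 probe sets running from -1.14 to -0.60, and GCLM was 1.79-fold lower (-0.84), its 3 probe sets from -0.96 to -0.71. TXNRD1 was at -0.48, AKR1C2 at -0.45 and AKR1C1 at -0.37. GCLC (-0.03) and SRXN1 (-0.12) were 1.02-fold and 1.08-fold lower, and HMOX1 was 1.45-fold higher (0.53). Of the 24 further targets 1 was at least 2-fold higher, the export pump ABCC2 (1.32), and 2 were lower, SLC7A11 (-1.61) and CBR3 (-1.47). Among the 14 regulators, 0 were higher and 1 was lower, MAFF (-2.52), with NFE2L2 at 0.34 and KEAP1 at -0.27. Among antioxidant enzymes outside the NRF2 lists, the thioredoxin inhibitor TXNIP (3.73) and the mitochondrial dismutase SOD2 (1.58) were the 2 of 12 at least 2-fold higher.

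Without glutamine, siBRAF cells had higher AKR genes than siCont cells. There 3 of the 9 genes were at least 2-fold higher, where 12.8% of 13496 genes were: AKR1B10 (2.82), AKR1C2 (1.31) and AKR1C1 (1.08). None was lower, where 10.8% of all genes were. At 1.5-fold 4 were higher (22.8% of all genes) and 1 lower (20.0%). The 2-fold count thus comes from the AKR genes alone. All 3 were read by probe sets with a suffix for shared probes. Without such probe sets the AKR genes did not enter, so the count of 0 in that setting could not check them. The median of the 9 was -0.11. TXNRD1 was 1.59-fold lower (-0.67) and NQO1 1.42-fold lower (-0.51), but the NQO1 probe sets ran from -0.63 to 0.05. GCLM was at -0.19, and HMOX1 was 1.65-fold higher (0.73). The 7.06-fold size for AKR1B10 depends on background, because the lower of its values, 10.4, was below the array median.

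Of the 24 further targets 6 were at least 2-fold higher in this pair, among them ABCC2 (2.72), CBR1 (1.80) and AKR1C3 (1.40), and 1 was lower, SLC7A11 (-2.87), and the median was 0.42. Of the 14 regulators 1 was higher, DPP3 (1.22), and 2 were lower, MAFF (-5.36) and BACH1 (-1.59), with NFE2L2 at -0.79 and KEAP1 at 0.76. The comparisons named so far share arrays with each other, so they are not independent views of the genes.

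**Figure D3:**
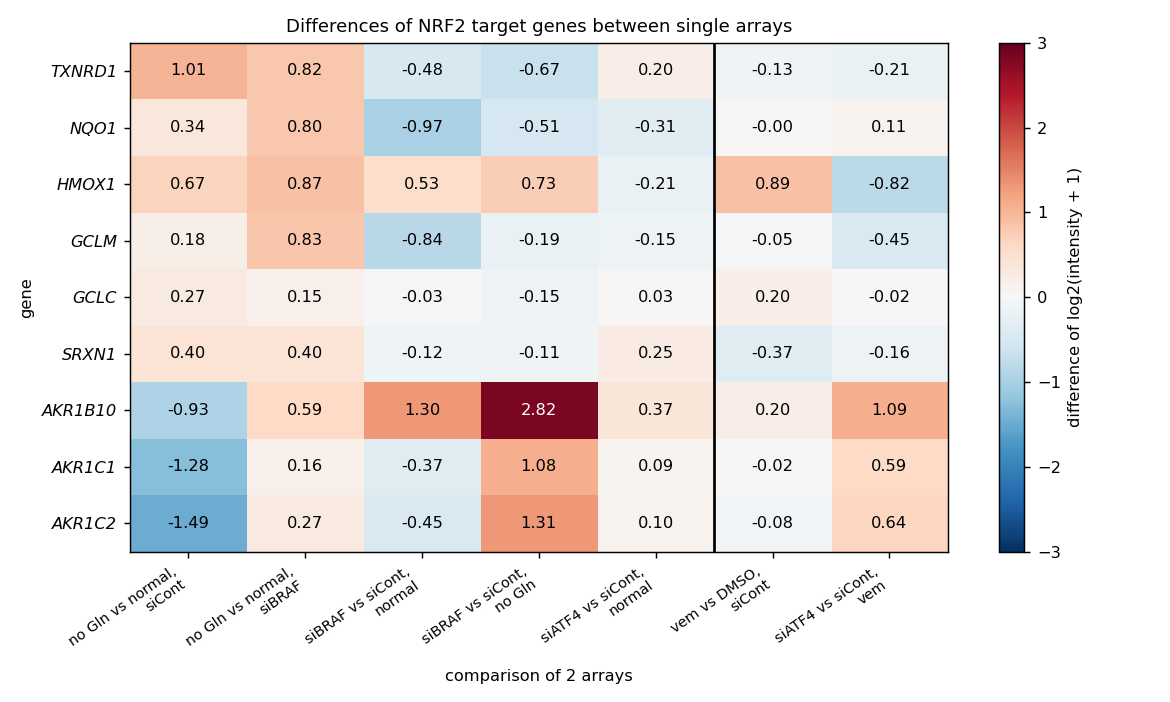
Difference of log2(intensity + 1) for each of the 9 genes in the 7 comparisons of 2 arrays; red is higher and blue lower on the array named before "vs", and the black line separates the medium arrays from the DMSO and vemurafenib arrays. The column of glutamine withdrawal in siBRAF cells is positive for all 9 genes, and AKR1B10 holds the highest value of the plot, 2.82.

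With siATF4 in normal medium the 9 genes read much as with siCont. None was at least 2-fold higher (0.471% of 13170 genes were) or lower (0.387% were), nor 1.5-fold higher (2.62% were) or lower (1.86% were), and the median was 0.09 beside 0.03 over all genes. AKR1B10 was furthest up, at 0.37, and NQO1 furthest down, at -0.31. HMOX1 was at -0.21. SLC7A11 read 262 with siCont and 313 with siATF4 (0.25), NFE2L2 was at 0.12 and KEAP1 at 0.18. None of the 24 further targets was 2-fold apart, the highest being the export pump ABCC3 (0.65).

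Vemurafenib for 4 h went with a higher HMOX1 and with little difference in the other 8 genes. HMOX1 read 186 in DMSO and 345 in vemurafenib, 1.85-fold higher (0.89), at rank 168 of 13160 genes. No gene of the 9 was 2-fold higher (0.859% of all genes were) or lower (1.92% were), and the median was -0.02. At 1.5-fold HMOX1 was the 1 higher gene (3.14% of all genes were), and 0 were lower (4.61% were). The other 8 differences ran from -0.37 for SRXN1, which read 799 and 618, to 0.20 for GCLC and AKR1B10. TXNRD1 read 2919 and 2666, and NQO1 3898 and 3886. SLC7A11 read 571 in DMSO and 1129 in vemurafenib (0.98). CTH (3.09), CHAC1 (2.81) and CBS (1.07) were the 3 of 11 glutathione and cysteine genes at least 2-fold higher. NFE2L2 was at 0.13 and KEAP1 at 0.17. Of 13 regulators 0 were higher and 1 was at least 2-fold lower, MAFF (-3.98).

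ATF4 knockdown in vemurafenib went with a lower HMOX1 and higher AKR genes. HMOX1 read 195 with siATF4 and 345 with siCont in vemurafenib (-0.82), near the 186 of siCont cells in DMSO, and was at rank 154 from the lowest of 13173 genes. The series has no siATF4 array in DMSO. A siATF4 difference already present without the drug therefore cannot be told apart from one that needs it. At least 2-fold higher was 1 of the 9 genes, AKR1B10 (0.205% of all genes were), and 0 were lower (0.729% were). At 1.5-fold 3 were higher, the AKR genes (1.77% of all genes were), and 1 was lower, HMOX1 (2.57% were). AKR1B10 read 58.8 in DMSO, 67.8 in vemurafenib with siCont and 145 with siATF4, and its difference of 1.09 was at rank 17 from the highest. All 3 arrays were above the median of their array.

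AKR1C1 read 470, 464 and 698 on these 3 arrays in the same order, and AKR1C2 299, 282 and 441. They were 1.51-fold and 1.56-fold higher with siATF4 than with siCont in vemurafenib (0.59 and 0.64), and their second probe sets at 0.54 and 0.61. The siATF4 array was the highest of the 3 for all of these probe sets. In normal medium the siATF4 differences of the 3 AKR genes were 0.37, 0.09 and 0.10.

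GCLM read 1424, 1371 and 1006 on the 3 arrays, 1.36-fold lower with siATF4 (-0.45), and its 3 probe sets ran from -0.53 to -0.27. GCLC read 456, 525 and 519 (-0.02), so that the 2 subunits of the ligase again read differently. TXNRD1 was at -0.21, SRXN1 at -0.16 and NQO1 at 0.11. The median of the 9 genes was -0.02, beside 0.03 over all genes. SLC7A11 read 220 with siATF4 against 1129 with siCont (-2.35), the 1 of 24 further targets at least 2-fold lower, and none was higher. CHAC1 (-2.96), CBS (-1.96) and CTH (-1.87) were the 3 of 11 glutathione and cysteine genes at least 2-fold lower. NFE2L2 was at -0.18 and KEAP1 at -0.19. The opposite placing of HMOX1 and the AKR genes with siATF4 in vemurafenib was read on a single pair of arrays. With siATF4 in normal medium HMOX1 was at -0.21 and the AKR genes at 0.09 to 0.37, and none of these was 1.5-fold apart.

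**Figure D4:**
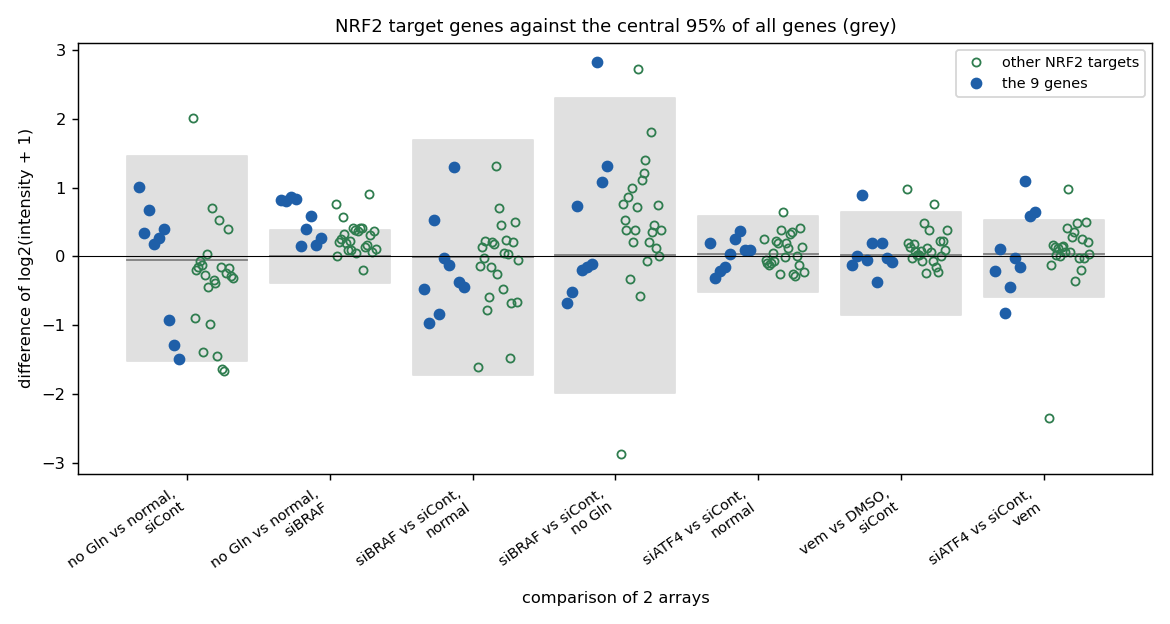
Difference of log2(intensity + 1) in each of the 7 comparisons for the 9 genes (filled circles, in the order TXNRD1, NQO1, HMOX1, GCLM, GCLC, SRXN1, AKR1B10, AKR1C1, AKR1C2) and 24 further NRF2 targets (open circles); the grey box spans the central 95% of all genes that entered and the grey line is their median. In siBRAF cells without glutamine the box runs from -0.39 to 0.38 and 6 of the 9 genes lie above it.

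Likeness of pattern was measured as the root mean square difference of log2 values over the 8 arrays, each gene centred on its mean within its set of arrays. AKR1C1 and AKR1C2 were 0.07 apart. TXNRD1, NQO1 and GCLM were 0.19 to 0.22 apart from each other. SRXN1 was 0.21 from both GCLM and GCLC and 0.26 from TXNRD1. HMOX1 was 0.47 to 0.60 from the 5 other redox genes and 0.78 to 0.84 from the AKR genes. AKR1B10 was 1.14 from TXNRD1 and 0.68 from AKR1C2.

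The genes nearest to a member by this measure, among 14219 genes, were mostly outside the lists. H1-4 (0.10), IER5 (0.15) and UNC13A (0.15) were nearest to TXNRD1, and PAGE1 (0.10), PRPF39 (0.13) and EPHB1 (0.13) to NQO1. IL21R (0.16), IRAK1BP1 (0.23) and TRIM16 (0.24) were nearest to HMOX1. ABCC2 (0.18), RHOBTB1 (0.20) and TP53TG1 (0.21) were nearest to AKR1B10, of which ABCC2 is on the list of further NRF2 targets. AKR1C2 had AKR1C1 (0.07) and AKR1C3 (0.08) next to it, which are neighbours in sequence and may share probes. The measure is a description of 8 arrays, and many genes vary little enough to come close to a member such as GCLC, whose nearest gene, ZNF432, was 0.03 away.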

How the data were processed

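The authors deposited linear intensities made with RMA, per the submitters' processing notes; software version and genome build are not given in the sources used here. Biotin-labelled cRNA came from 5 ug of total RNA, per the labels' protocols. Values were used as deposited, with log2(intensity + 1); a fold on this scale understates the change of low genes. Of 54675 probe sets, 62 were array controls, 41091 had 1 gene symbol, 1801 several and 11721 none in the platform annotation (1 probe set shared by AKR1C1 and AKR1C2 was left out). Symbols of 41037 were updated through gene IDs to RefSeq. A gene's brightest probe set (mean log2 value, 8 arrays) stood for it, and it entered a comparison if its higher value reached the 50th percentile of that array. Calls used a 2-fold difference. No test was made: each condition has 1 array, and their number limits the precision. An additive model of siRNA and medium over the medium arrays was not fitted here. The calling step was checked on simulated data.

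The 9 genes, the other 9 gene lists and the alternatives were chosen with earlier results of these data known. From each list the 3 genes furthest apart per comparison and NFE2L2, KEAP1 and SLC7A11 could be named; others that make up a count of 5 or fewer, and the 3 genes named for single values (CTH, ATF4 and CHAC1 in siBRAF cells), were named after their values were seen. Alternatives were log2(intensity + 16), a filter at the 75th percentile, no filter, the mean of all probe sets, probe sets without a suffix for shared probes, quantile normalization within a set, and a 1.5-fold threshold. Promoter windows and gene names came from RefSeq (GRCh38.p14). The work used Python 3.11.15, numpy 2.4.6, pandas 2.3.3 and matplotlib 3.10.9.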

Additional observations from a re-analysis of the deposited data

Results flagged for a closer look

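For some of the 9 genes the same change went opposite ways on 2 pairs of arrays. The difference between the pairs was not tested, and with 1 array per condition small values of opposite sign carry little weight.

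Without glutamine, AKR1B10 was lower in siCont cells (-0.93) and higher in siBRAF cells (0.59), a gap of 1.52. AKR1C1 was at -1.28 and 0.16, a gap of 1.45, and AKR1C2 at -1.49 and 0.27, a gap of 1.76. Seen the other way, siBRAF went with lower AKR1C1 (-0.37) and AKR1C2 (-0.45) in normal medium and with higher AKR1C1 (1.08) and AKR1C2 (1.31) without glutamine, with the same gaps of 1.45 and 1.76, since they use the same 4 arrays.

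With siATF4, TXNRD1 was at 0.20 in normal medium and -0.21 in vemurafenib, a gap of -0.41, and SRXN1 at 0.25 and -0.16, also a gap of -0.41. NQO1 was at -0.31 and 0.11, a gap of 0.42, and GCLC at 0.03 and -0.02, a gap of -0.04. Each siATF4 difference was taken within its own set of arrays, but these gaps cross between the sets. The sets also differ in scale and in treatment time, and the part of vemurafenib in these gaps was not tested.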

How the results depend on the processing

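No paired analysis was possible because each condition has 1 array and the labels give no replicate numbers. The counts of members at least 2-fold apart, higher and lower in 7 comparisons, were recomputed under 7 alternatives. Of these 98 counts, 79 stayed within 1.5 times the main count. Most main counts were 0, and a 0 that stayed 0 is among the 79. This share therefore says little about the counts above 0, which follow. Without glutamine in siCont cells, the 1 higher gene became 0 with log2(intensity + 16), under quantile normalization and when its probe sets were averaged, and the 2 lower genes became 0 in the average over all probe sets and without shared probe sets. With siBRAF in normal medium, the 1 higher gene became 0 with log2(intensity + 16), at the 75th percentile and without shared probe sets. With siBRAF and no glutamine, the 3 higher genes became 1 in the average over all probe sets and 0 without shared ones. With siATF4 in vemurafenib, the 1 higher gene became 0 with log2(intensity + 16) and without shared probe sets. Without shared probe sets only 5 of the 9 genes entered. A 1.5-fold threshold gave 2 higher genes for glutamine withdrawal in siCont cells, 5 higher in siBRAF cells, 2 lower for siBRAF in normal medium, 1 lower for siBRAF without glutamine, 1 higher for vemurafenib, and 3 higher and 1 lower for siATF4 in vemurafenib.

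No member at least 2-fold apart changed sign in a setting where it entered. Without shared probe sets the AKR genes did not enter, so their signs were not checked there. Of the smaller differences, those of GCLC and AKR1C1 changed sign under some settings, among them GCLC with siBRAF and no glutamine (-0.15, and 0.17 without shared probe sets). With the mean of all probe sets AKR1C1 and AKR1C2 were at -0.42 and -0.79 for glutamine withdrawal in siCont cells, since probe sets below the median enter the mean. With log2(intensity + 16) AKR1B10 was at 0.90 for siBRAF in normal medium and 0.94 for siATF4 in vemurafenib.

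Over all genes, the 964 lower in siCont cells without glutamine became 629 with log2(intensity + 16) and 633 with the mean of all probe sets. In siBRAF cells the 10 lower became 4 with log2(intensity + 16), 4 at the 75th percentile and 6 without shared probe sets. With siATF4 in normal medium the 62 higher became 33 and 35 with log2(intensity + 16) and at the 75th percentile, and the 51 lower 22, 33 and, with the mean of all probe sets, 28. With vemurafenib the 113 higher became 75 at the 75th percentile and 70 with the mean. With siATF4 in vemurafenib the 27 higher became 8 with log2(intensity + 16), 12 at the 75th percentile and 17 with the mean. The cause of these shifts was not tested.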

Other observations

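Genes of heme and iron handling, which lie around HMOX1, and other aldo-keto reductases were read on the same arrays. Of 7 heme and iron genes, 7 were above 0 without glutamine in siBRAF cells, where 54.1% of all genes were. Their median was 0.22, beside 0.01 over all genes. The entry enzyme of heme synthesis ALAS1 read 295 and 432 (0.55), and the transferrin receptor TFRC 1473 and 1835 (0.32). In siCont cells the median of the 7 was -0.38. The heme synthesis enzyme CPOX (-1.27) was the 1 gene at least 2-fold lower, where 7.22% of all genes were. None was higher, where 5.76% of all genes were. In vemurafenib the median of the 7 was 0.00 on the log2 scale, with ALAS1 at -0.55. None of the 7 was 2-fold higher (0.859% of all genes were) or lower (1.92% were).

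AKR1C3, AKR7A2 and AKR7A3 were the 3 other aldo-keto reductases that entered. Without glutamine they were at -1.44, -0.84 and -0.66 in siCont cells and at 0.42, 0.04 and -0.09 in siBRAF cells. With siATF4 in vemurafenib they were at 0.36, 0.12 and 0.16, where AKR1B10 was at 1.09. AKR1C3 is close in sequence to AKR1C1 and AKR1C2 and may share probes with them.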
